A study of Bos taurus with 56 samples.

Results

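Accessible chromatin peaks of 2-cell embryos were compared with those of MII oocytes in cattle (Bos taurus). The members were all 3366 peaks of the 2 lists, 2636 in 2-cell embryos and 730 in MII oocytes, out of 673059 peaks in the 11 lists of the series. Each peak was placed in 1 of 3 classes, namely 2-cell only, MII only, or shared, the last where peaks of both lists had at least 1 bp in common. The assay was ATAC-seq, in which an enzyme cuts open chromatin and tags the ends for sequencing, so that reads pile up as peaks over accessible DNA. The 2-cell list was merged by the authors from 6 libraries and the MII list from 5, each made from pooled embryos or oocytes. The other 9 lists came from GV oocytes, 4-cell, 8-cell and 16-cell embryos, morulae, morulae derived in vivo, blastocysts, blastocysts derived in vivo and day 14 elongating embryos. The labels give no breed or donor age, and do not say how the 2-cell embryos and MII oocytes were produced.

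The MII oocyte is the mature egg, arrested at metaphase of the second meiotic division, with its chromosomes condensed on the spindle. The 2-cell embryo follows fertilization and the first cleavage. In cattle the embryonic genome is mainly silent at that stage, and the major wave of transcription starts around the 8-cell to 16-cell stage, so the earliest cleavages run largely on RNA and protein stored in the egg. The comparison thus spans fertilization, the formation of the pronuclei and the first mitosis. No gene or sequence is attached to the regions named below, because the gene table at hand is of another genome assembly than the peaks, and the stages themselves could not be checked against marker genes.

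Every list gives only the chromosome, start and end of a peak on build UMD3.1, with no height, score or read count. Sequencing depth was therefore unknown, and a peak missing from a list is a region not called there, which does not show it to be closed. A single merged list per stage holds no spread between libraries, so no test was run. The interval beside a share is an exact Clopper-Pearson one at 95%, for counting error alone, with each peak taken as independent. The narrowest peak was 230 bp in the 2-cell list and 216 bp in the MII list, and 81 MII peaks were narrower than any 2-cell peak. As a background for each share, the spanned genome of 2661 Mb was cut into consecutive 500 bp windows, and the share of windows touching a list was counted. These windows include assembly gaps, and they are wider than most unshared peaks and most shared MII peaks, and narrower than most shared 2-cell peaks.

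Most of both lists was unshared. Bases covered came to 1.15 Mb in 2-cell embryos and 0.276 Mb in MII oocytes, 4.16 times as many. In 2-cell embryos 2481 of 2636 peaks (94.1%, interval 93.2% to 94.99%) had no MII peak, and in MII oocytes 560 of 730 (76.7%, interval 73.5% to 79.7%) had no 2-cell peak. The shared class held 155 of the 2-cell peaks, 5.88% of that list (interval 5.01% to 6.85%), against 0.024% of all 500 bp windows that touch an MII peak. It held 170 of the MII peaks, 23.3% of that list (interval 20.3% to 26.5%), against 0.0918% of windows that touch a 2-cell peak. Counted in bases, 94.7 kb lay in both lists, which was 8.26% of the 2-cell bases and 34.3% of the MII bases. Sharing was thus larger in bases than in peaks, because shared peaks were the wide ones.

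Few unshared peaks were near misses. The smallest overlap among shared peaks was 16 bp and the next ones were 138 and 145 bp, with a median of 427 bp. Just outside the rule, the 3 2-cell only peaks closest to an MII peak lay 1, 20 and 53 bp from it, and the 3 MII only peaks closest to a 2-cell peak lay 1, 242 and 439 bp from it. Within 1000 bp of a peak of the other list lay 44 of the 2-cell only peaks (1.77%) and 9 of the MII only peaks (1.61%). The median distance to the nearest peak of the other list was 1040 kb for 2-cell only peaks and 414 kb for MII only peaks, the MII list being the sparser target.

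Shared peaks were wider than unshared ones, though the ranges overlapped. The 2-cell only peaks had a median width of 322 bp (quartiles 264 and 412 bp, range 230 to 3531 bp). The MII only peaks had a median of 285 bp (quartiles 243 and 355 bp), and none exceeded 898 bp. Shared peaks had a median of 823 bp in 2-cell embryos (quartiles 554 and 1406 bp) and 449 bp in MII oocytes (quartiles 344 and 652 bp). In the 2-cell list 127 of the 527 peaks of the widest quintile were shared (24.1%), and among the 528 peaks of the narrowest quintile 1 was shared (0.189%). In the MII list the corresponding shares were 61.4% of the widest quintile, from 432 bp up, and 6.04% of the narrowest quintile. The widths of both lists depend on a calling threshold and a merging rule that the sources used here do not give.

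**Figure D1:**
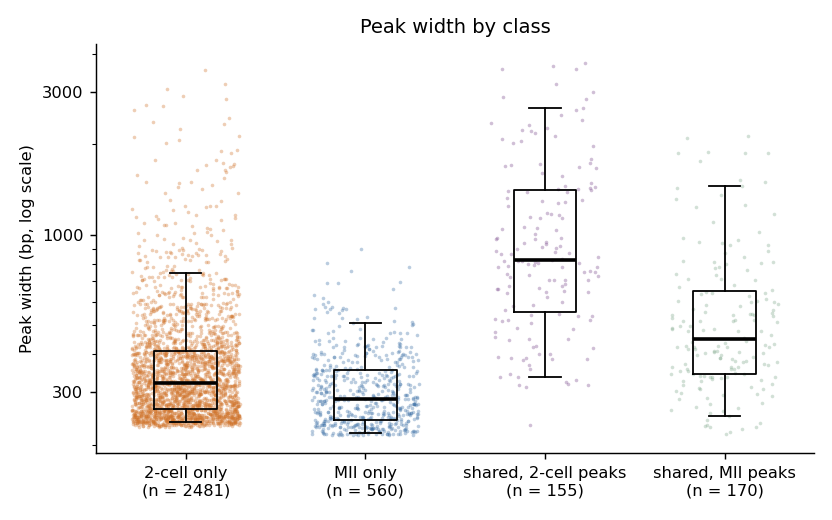
Width of every peak in base pairs on a log scale, by class; each point is a peak, boxes span the quartiles with the median as a thick line, and whiskers run from percentile 5 to percentile 95. Shared peaks sit highest, with medians of 823 bp in 2-cell embryos and 449 bp in MII oocytes, above 322 bp for 2-cell only and 285 bp for MII only peaks.

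At shared places the 2-cell peak was usually the wider one. The shared classes formed 171 overlapping pairs, and in 157 of them (91.8%) the 2-cell peak was wider. The ratio of 2-cell to MII width had a median of 1.71, with quartiles of 1.18 and 2.82. In 129 pairs the MII peak lay wholly inside the 2-cell peak, and in 5 pairs the reverse held. The midpoints were a median of 94.5 bp apart. A 2-cell peak could overlap more than 1 MII peak, with 14 overlapping 2 and 1 overlapping 3, whereas a single MII peak overlapped 2 2-cell peaks.

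The largest ratio of 2-cell to MII width was 12.8, on chromosome 16. There a 2-cell peak from 55855391 to 55858261 (2871 bp) held an MII peak from 55856429 to 55856653 (225 bp). Next in ratio came chromosome X, where a 2-cell peak from 28504749 to 28508408 was 9.08 times as wide as an MII peak of 403 bp inside it. On chromosome 3 a 2-cell peak from 8105238 to 8108410 was 8.86 times as wide as an MII peak of 358 bp inside it. These 2-cell peaks also held MII peaks of 432 bp on X and 424 bp on chromosome 3. The opposite extreme lay on chromosome 13, where a 2-cell peak of 402 bp from 49002021 to 49002422 lay inside an MII peak of 1495 bp from 49001293 to 49002787, a ratio of 0.269. On chromosome 29 a 2-cell peak from 30338550 to 30338969 was 0.340 times as wide as the MII peak it overlapped by 138 bp. On chromosome 15 the 2-cell peak from 85291601 to 85291937 was 0.501 times as wide as its MII partner.

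**Figure D2:**
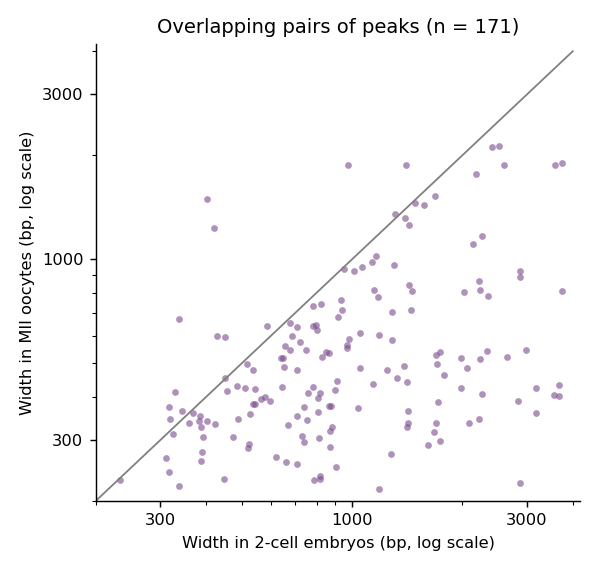
Width in 2-cell embryos (x axis) against width in MII oocytes (y axis), both in base pairs on log scales, for the 171 overlapping pairs; the line marks equal width. In 157 pairs the point lies below the line, the 2-cell peak being the wider one.

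The shared peaks were regions that recurred throughout the series. Of the 155 shared 2-cell peaks, 106 (68.4%, interval 60.4% to 75.6%) overlapped a peak in all 9 other lists, against 0.00975% of windows. A further 22 had peaks in all 8 later embryo lists and no GV oocyte peak, so that 128 (82.6%) were found at every embryonic stage, against 0.0171% of windows. None of the 155 was confined to the MII and 2-cell lists. At least 7 other lists held 144 of them (92.9%, interval 87.7% to 96.4%). The median number of other lists with a peak was 9 for shared peaks, 1 for 2-cell only peaks and 0 for MII only peaks.

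Among those peaks found in all 11 lists, the widest overlapping peak had a median width of 972 bp in 2-cell embryos and 538 bp in MII oocytes. In 101 of the 106 regions it was narrower in MII oocytes than in 2-cell embryos. The other lists had medians of 782 bp in GV oocytes, 1214 bp in 4-cell and 1193 bp in 8-cell embryos, and 1015 bp in day 14 embryos. The MII median was the lowest of all 11, the GV median the second lowest. Since the regions were selected by their peaks in both compared lists, these widths are a description.

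The 3 widest of the shared regions present in all lists comprised a pair on chromosome X, at 89972470 to 89976216 and at 28504749 to 28508408, and one more on chromosome 13, at 83063674 to 83067253. The first held MII peaks of 809 and 1894 bp, the second MII peaks of 403 and 432 bp, and the one on chromosome 13 a single MII peak of 1875 bp. Behind them came a region of 3558 bp on chromosome 14 from 482834 to 486391 and the one on chromosome 3 from 8105238 to 8108410. At the other end, a shared peak of 383 bp on chromosome 14 from 572310 to 572692 had a peak in the 16-cell list and in none of the other 8. A shared peak on chromosome 24 from 272325 to 272668 had peaks in 4-cell, 8-cell, in vivo blastocyst and day 14 lists. One on chromosome 21 from 2128879 to 2129387 had peaks in 8-cell, 16-cell, both morula and in vivo blastocyst lists.

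**Figure D3:**
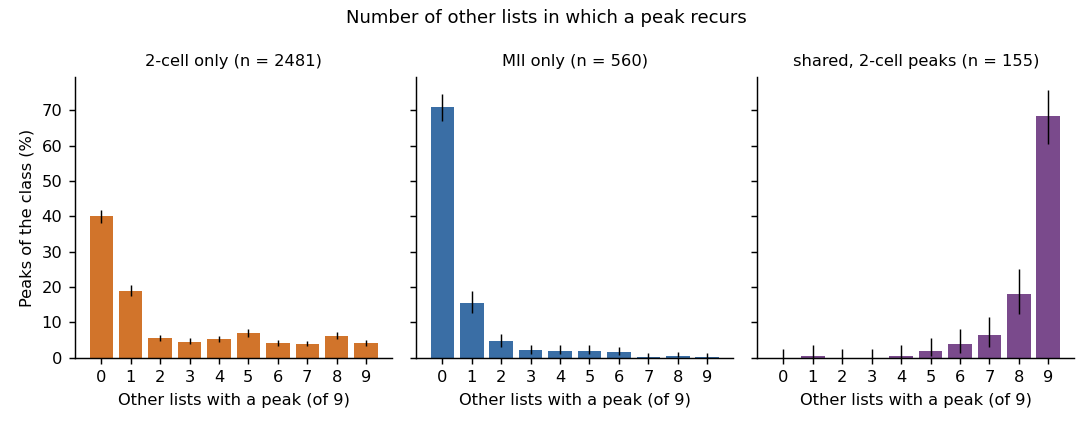
Share of each class (percent, y axis) by the number of the 9 other lists with an overlapping peak (x axis), with 95% exact intervals as lines. MII only peaks pile up at 0 (70.9%), shared peaks at 9 (68.4%), and 2-cell only peaks spread from 0 (39.98%) to 9 (4.23%).

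The 2-cell only peaks were a mixture. Of the 2481, 992 (39.98%, interval 38.1% to 41.9%) were found in no other list, against 84.0% of windows that touch none of the 9. Another 367 (14.8%, interval 13.4% to 16.3%) were found in the day 14 list alone, by far the longest list, against 8.29% of windows. A smaller set of 214 (8.63%, interval 7.55% to 9.80%) had peaks in all 8 later embryo lists, against 0.0171% of windows. Of these, 105 had a GV oocyte peak too and so were in all 9 other lists, against 0.00975% of windows. These groupings of the 2-cell only peaks were chosen after their values were seen.

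One pattern left out the 4-cell stage. In 110 of the 2-cell only peaks (4.43%, interval 3.66% to 5.32%) a peak was found again at the 8-cell stage, the 16-cell stage, in both morula groups and at day 14, whereas the GV oocyte, 4-cell and blastocyst lists had none. The same pattern held for 6 of the 560 MII only peaks (1.07%, interval 0.394% to 2.32%), for no shared peak, and for 0.35% of windows. The 4 lists without a peak are short, with 2587 to 5810 peaks, and the 5 lists of the pattern are long, with 57039 to 372509 peaks. The part of list length in the pattern was not tested. These 110 peaks were narrow, with a median of 307 bp, and scattered over 103 windows of 1 Mb with at most 2 in any window. The 3 widest, named after their values were seen, were at 47799738 to 47800209 on chromosome 13 (472 bp), at 53530521 to 53530983 on chromosome 18 (463 bp) and at 56366146 to 56366603 on chromosome 4 (458 bp).

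By contrast, the 214 peaks present in every later embryo list were wide, with a median of 632 bp (quartiles 472 and 904 bp), and 44.9% of them lay in their 10 fullest 1 Mb windows. The 3 widest with peaks in all embryo lists and neither oocyte list were all on chromosome 17, at 35644840 to 35648370, 50933015 to 50935915 and 50872500 to 50875211. Their widths in 2-cell embryos were 3531, 2901 and 2712 bp. Other wide 2-cell only peaks had GV oocyte peaks as well, among them those near the starts of chromosome 15 (3825 to 6992) and chromosome 5 (237 to 3070), and one inside chromosome 8 (76341480 to 76344543). Those found in no other list were much narrower. The 3 widest of them lay on chromosome 26 from 31282941 to 31283714 (774 bp), on chromosome 13 from 72998345 to 72999075 (731 bp) and on chromosome 8 from 75871994 to 75872716 (723 bp).

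Peaks seen in GV oocytes and 2-cell embryos and not called in MII oocytes numbered 260, 10.5% of the 2-cell only class (interval 9.30% to 11.8%), against 0.153% of windows. They had a median width of 475 bp, and 82.7% of them recurred at the 4-cell stage and 87.7% at the 8-cell stage, and 247 of the 260 at day 14. The 2221 2-cell only peaks without a GV peak had a median width of 313 bp, and 14.9% of them were in the 4-cell, 24.8% in the 8-cell and 47.4% in the day 14 list. A similar split ran with the next cleavage stage. The 546 2-cell only peaks also found at the 4-cell stage (median 474 bp) were in the 8-cell list in 84.6% of cases and in the blastocyst list in 78.4%. Those not found at the 4-cell stage, 1935 peaks with a median of 304 bp, were in the 8-cell list in 16.3% and in the blastocyst list in 6.15% of cases. Width differed with each of these splits, and its part in them was not tested.

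The MII only peaks recurred least often of the 3 classes, though under the 1 bp rule more often than the windows did. Where 50% of both peaks had to be shared, 81.8% of the MII only peaks were in none of the 9 other lists. No window share was counted for that rule. Under the 1 bp rule, 397 of the 560 (70.9%, interval 66.9% to 74.6%) were found in no other list, against 84.0% of windows. The day 14 list alone held 69 (12.3%), against 8.29% of windows, and all 9 other lists held 2, against 0.00975% of windows. In GV oocytes 13 had a peak (2.32%, interval 1.24% to 3.94%), against 0.153% of windows, and 11 of these recurred in at least 1 embryo list. The remaining 2, the only MII only peaks found in GV oocytes and in no embryo list, were both on chromosome 28, from 45379542 to 45379973 and from 29330341 to 29330560. The widest MII only peak, 898 bp on chromosome 16 from 66307166 to 66308063, had peaks in the blastocyst and day 14 lists. Behind it came chromosome 1 from 2278504 to 2279309, with peaks in the 8-cell, 16-cell, morula and day 14 lists, and chromosome X from 35682793 to 35683575, with peaks in those 4 and in both blastocyst lists. A peak on chromosome X from 56052217 to 56052915 recurred in 6 lists, and one of 760 bp on chromosome 6 from 39309997 to 39310756 in none. The next widest in no other list were on chromosome 7 from 25693838 to 25694528 (691 bp) and on chromosome 3 from 75965311 to 75965969 (659 bp).

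The classes kept the same order in every other list, shared peaks highest, 2-cell only peaks next and MII only peaks lowest. In the 4-cell list were 22.0% of the 2-cell only peaks (interval 20.4% to 23.7%), 2.50% of the MII only peaks (1.37% to 4.16%) and 94.8% of the shared 2-cell peaks, against 0.207% of windows. The 8-cell list held 31.4% of 2-cell only (29.5% to 33.2%), 7.50% of MII only (5.46% to 10%) and 97.4% of shared peaks, against 2.45% of windows. In the 16-cell, morula and in vivo morula lists were 30.2%, 31.8% and 22.7% of the 2-cell only peaks and 6.79%, 10.4% and 7.32% of the MII only peaks, against 2.92%, 4.06% and 2.63% of windows. The blastocyst list, though short, held 22.0% of 2-cell only (20.4% to 23.7%) and 4.82% of MII only peaks (3.201% to 6.94%), against 0.107% of windows. In vivo blastocysts held 17.3% and 4.11% of these classes, against 0.103% of windows. Day 14 embryos held 52.4% of 2-cell only (50.4% to 54.4%), 22.9% of MII only (19.4% to 26.6%) and 98.7% of shared peaks, against 10.8% of windows. Where 50% of both peaks had to be shared, the day 14 list held 20.6% of 2-cell only, 9.75% of MII only and 85.1% of shared peaks, and the 8-cell list 16.4%, 4.56% and 88.3%. Under that rule 63.5% of the 2-cell only peaks were in none of the 9 lists. Under the 1 bp rule, in each of the 9 lists the intervals of the 2-cell only and MII only shares did not overlap, and both shares lay above the share of windows.

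**Figure D4:**
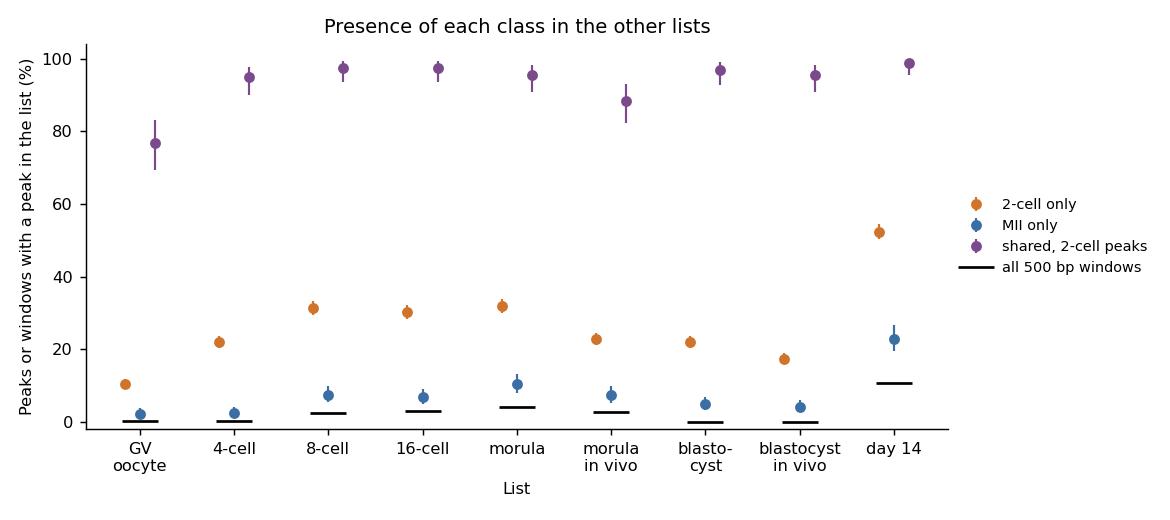
Share of each class with an overlapping peak in each other list (percent, y axis; lists along the x axis), with 95% exact intervals as lines and the share of all 500 bp windows touching the list as black bars. Shared peaks lie between 76.8% and 98.7%, 2-cell only peaks between 10.5% and 52.4%, and MII only peaks between 2.32% and 22.9%.

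Part of the gap between shared and 2-cell only peaks went with width. Among 2-cell peaks under 554 bp, the lower quartile of the shared ones, 25.4% of the 2197 unshared and 92.3% of the 39 shared peaks were in the 8-cell list. From 823 to 1406 bp the shares were 92.8% of 69 unshared and 97.4% of 39 shared peaks. Weighted to the widths of the shared peaks, 70.1% of the 2-cell only peaks were in the 8-cell list in place of 31.4%. The gap for GV oocytes was larger at these widths, with 46.4% of the unshared and 87.2% of the shared peaks between 823 and 1406 bp found there. The gap in MII oocytes was wide at each width compared. Of the peaks under 344 bp, 6.14% of the 407 unshared and 97.7% of the 43 shared ones were in the 8-cell list. Weighted likewise, 18.4% of the MII only peaks were in the 8-cell list in place of 7.50%, a value that rests on the 8 MII only peaks of 652 bp or more, since it was 7.74% without them.

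The 2-cell list overlapped more MII peaks than the GV oocyte list did and fewer than the other short lists. Of the MII peaks, 170 overlapped the 2-cell list (23.3%, interval 20.3% to 26.5%) and 140 the GV oocyte list (19.2%, interval 16.4% to 22.2%). The 4-cell list overlapped 175, the blastocyst list 189 and the in vivo blastocyst list 186 (25.5%, interval 22.3% to 28.8%). Those lists hold 2636, 4382, 5810, 3397 and 2587 peaks, in the order named. In the same order they touched 0.0918%, 0.153%, 0.207%, 0.107% and 0.103% of all 500 bp windows. These shares rest on the same MII list, and the interval of the 2-cell list overlaps those of the other short lists. Over all lists 333 MII peaks (45.6%) and 1644 2-cell peaks (62.4%) overlapped a peak of at least 1 other list. Of all 500 bp windows, 84.0% touched none of the 9 lists besides the 2-cell and MII lists. The 2-cell list touched 0.0918% of windows and the MII list 0.024%.

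Chromosomes 14 and 29 stood out in the shared class, mainly through a single 1 Mb window on each. Chromosome 29 held 26 of the 155 shared 2-cell peaks, 8.67 times the mean density of the class, and chromosome 14 held 20, or 4.06 times. Of the 26, 24 lay between 30 and 31 Mb of chromosome 29, and of the 20, 16 lay between 0 and 1 Mb of chromosome 14. On chromosomes 12, 19, 22 and 23 no peak was shared. In the 2-cell only class the densest chromosomes were again 14 (147 peaks, 1.86 times the class mean) and 29 (88 peaks, 1.83 times), and in the MII only class they were 18 (26 peaks, 1.87 times) and 29. Of the MII peaks, 62.5% of the 48 on chromosome 29 and 56.4% of the 39 on chromosome 14 were shared, against 4.35% of the 23 on chromosome 2 and 3.70% of the 27 on chromosome 18. The same windows held 28 of the 30 shared MII peaks on chromosome 29 and 18 of the 22 on chromosome 14. The gene-dense chromosomes 18, 19 and 25, together 6.50% of the spanned genome, held 8.67% of 2-cell only (interval 7.59% to 9.84%), 9.29% of MII only (7.01% to 12.0%) and 2.58% of shared 2-cell peaks (0.708% to 6.48%).

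Chromosomes were unevenly represented among groups of 2-cell only peaks. The 110 peaks seen again from the 8-cell stage to the morula and at day 14 had 18.2% on chromosomes 18, 19 and 25 (interval 11.5% to 26.7%), and those found in the day 14 list alone had 14.4% (11.01% to 18.5%). The 214 present in every later embryo list had 3.27% there (1.33% to 6.62%). The 992 found in no other list had 7.66% there (6.08% to 9.50%), against 6.5% of the spanned genome. The share on these chromosomes of all windows with the same patterns is not given here, so length is the only background. The day 14 share was not particular to 2-cell only peaks. MII only peaks found in the day 14 list alone had 14.5% on these chromosomes, which rests on 10 of 69 peaks. Chromosome X, 5.59% of the spanned genome, held 4.15% of 2-cell only peaks (3.40% to 5.01%) and 6.79% of MII only peaks (4.85% to 9.20%). It held 8.39% of shared 2-cell peaks (4.54% to 13.9%) and 8.82% of shared MII peaks (5.02% to 14.1%). Among peaks found in no other list, X held 17 of the 992 2-cell peaks (1.71%, interval 1.001% to 2.73%) and 29 of the 397 MII peaks (7.31%, interval 4.95% to 10.3%). Among the 2-cell only peaks present in every later embryo list it held 9.81% (6.18% to 14.6%).

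**Figure D5:**
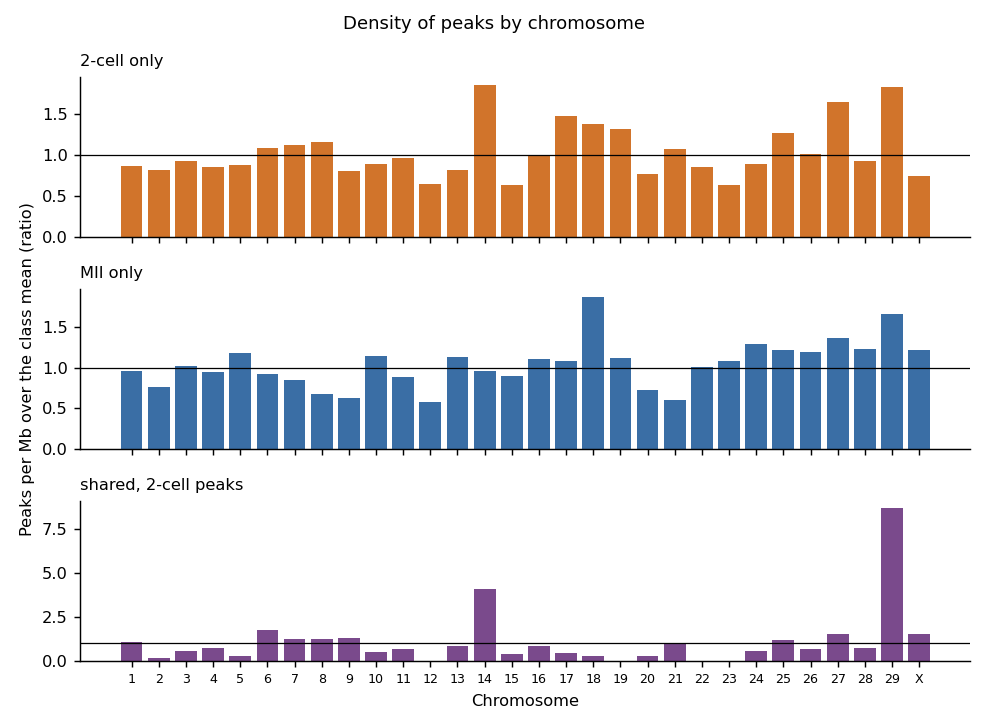
Peaks per megabase on each chromosome divided by the mean density of the class (ratio, y axis; the line marks 1), for 2-cell only, MII only and shared 2-cell peaks from top to bottom, each with its own scale. Shared peaks reach 8.67 on chromosome 29 and 4.06 on chromosome 14, whereas no bar of the unshared classes exceeds 1.87. A single 1 Mb window held 24 of the 26 shared 2-cell peaks on chromosome 29, and another held 16 of the 20 on chromosome 14.

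At the scale of 1 Mb, shared peaks were clustered and MII only peaks were scattered. The 10 fullest windows held 261 of the 2-cell only peaks (10.5%, interval 9.34% to 11.8%), 36 of the MII only peaks (6.43%, 4.54% to 8.79%) and 70 of the shared 2-cell peaks (45.2%, 37.2% to 53.4%). This share depends on the size of a class, being higher for a smaller one at equal spread. Where 50% of both peaks had to be shared, it was 11.6% for 2-cell only and 11.6% for MII only peaks, against 38.3% for shared 2-cell peaks. The 560 MII only peaks lay in 489 of the 2678 windows, 434 of which held a single one, and the fullest held 5. The 155 shared 2-cell peaks lay in 83 windows, and the 2481 2-cell only peaks in 1270.

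The start of chromosome 14, from 0 to 1 Mb, was the fullest window of the 2-cell list, with 67 unshared and 16 shared 2-cell peaks, and held 2 unshared and 18 shared MII peaks. On chromosome 29 between 30 and 31 Mb were 33 unshared and 24 shared 2-cell peaks, and 4 unshared and 28 shared MII peaks. On chromosome 1 between 145 and 146 Mb were 33 unshared and 8 shared 2-cell peaks, and 5 unshared and 9 shared MII peaks, the 5 being the most MII only peaks in any window. Of the 5 windows with 4 MII only peaks, 3 had no shared MII peak, on chromosome 1 between 148 and 149 Mb, on chromosome 12 between 78 and 79 Mb and on chromosome X between 45 and 46 Mb. The same 3 windows of chromosomes 14, 29 and 1 held 129, 116 and 120 peaks of the blastocyst list, and 70, 22 and 6 of the GV oocyte list.

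Sharing was more frequent inside such windows than outside them. The 62 windows with 5 or more peaks of either list, out of 2678, held 24.7% of the 2-cell and 19.5% of the MII peaks, and 57.4% of the shared 2-cell peaks. They were picked by counts of these same peaks, shared ones included, so these shares follow in part from the choice. Of the 89 shared 2-cell peaks in them, the windows named above on chromosomes 14, 29 and 1 gave 16, 24 and 8. Inside them 13.7% of the 2-cell peaks and 71.1% of the 142 MII peaks were shared. Outside them 3.32% of the 2-cell peaks and 11.7% of the 588 MII peaks were shared. The first 1 Mb of the chromosomes, 1.13% of the spanned genome, held 14.8% of shared 2-cell peaks (23 of 155), 4.76% of 2-cell only peaks (118) and 1.43% of MII only peaks (8). Of these, the chromosome 14 window gave 16 shared, 67 2-cell only and 2 MII only peaks. Without that window, an alternative added after seeing the data, the shares were 5.04% of shared 2-cell peaks (interval 2.05% to 10.1%), 2.11% of 2-cell only peaks (1.58% to 2.77%) and 1.08% of MII only peaks (0.396% to 2.33%). The last 1 Mb, also 1.13% of the spanned genome, held 4.52% of shared 2-cell peaks (7 of 155, interval 1.8% to 9.1%). It held 3.71% of 2-cell only (3.0% to 4.5%) and 3.39% of MII only peaks (2.1% to 5.2%).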

How the data were processed

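ATAC-seq peak lists of 11 stages were used, 1 per stage, which the authors merged from the 56 libraries of the series, per the series design text. The deposited files hold 3 columns, chromosome, start and end, and no score, so no unit of signal was analysed. The tools named are Bowtie2 2.3, MACS2, bedtools and HOMER, with build UMD3.1, per the submitters' processing notes. The sources used here do not give the threshold, the shift of reads for the transposase or the merging rule, which affect the number and width of peaks. Starts were read as counted from 0 and are printed counted from 1, a convention the files do not state.

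A peak was placed in a 1 Mb window by its midpoint, and chromosome lengths were taken as the last position in any list. Regions named are the widest of each class, the fullest windows, and the widest with set patterns of presence. Members, lists and groupings were chosen with earlier results of these data known. Overlaps were tested on simulated lists and equalled the counts of bedtools 2.31.1 (155 and 170). The work ran in Python 3.11.15 with scipy 1.17.1, pandas 2.3.3, numpy 2.4.6 and, for figures, matplotlib 3.10.9. Alternatives changed the overlap rule, the minimum width, the joining and widening of peaks, the length of the 2-cell list, the windows kept and the widths compared.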

Additional observations from a re-analysis of the deposited data

How the results depend on the processing

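Each stage is 1 merged list, so depth and replicate spread are unknown and leaving out a library was not possible. No paired analysis was possible because the merged lists hold no separate libraries. Requiring 50% of both peaks to be shared left 94 shared 2-cell peaks, 3.57% of 2-cell and 12.9% of MII peaks, with median widths of 708 bp for shared and 294.5 bp for MII only peaks. Under that rule the 8-cell list held 16.4% of 2-cell only, 4.56% of MII only and 88.3% of shared peaks, and 63.5% of 2-cell only and 81.8% of MII only peaks were in none of the 9 other lists. A minimum width of 326 bp, the median over both lists, left 1238 2-cell only and 193 MII only peaks (medians 417 and 393 bp), and 9.30% of 2-cell and 41.7% of MII peaks were shared. Of these 2-cell only and MII only peaks, 43.7% and 10.9% recurred at the 8-cell stage and 30.1% and 66.3% recurred nowhere, and 16.6% of the 2-cell only peaks lay in the 10 fullest windows. Holding the 2-cell list to its 730 widest peaks set the ratio of list lengths to 1 and left 595 2-cell only peaks (median 544 bp), with 18.5% of the 2-cell peaks shared, 25.2% of the 2-cell only peaks in the 10 fullest windows, 58.7% in the 8-cell list and 17.8% in none, while 10.3% of the MII only peaks were in the 8-cell list. Without the 62 windows of 5 or more peaks, 66 2-cell peaks were shared, 3.32% of 2-cell and 11.7% of MII peaks, and 22.5% of 2-cell only peaks recurred at the 8-cell stage and 49.3% nowhere. Weighted to the widths of the shared peaks, the 8-cell shares were 70.1% of 2-cell only and 18.4% of MII only peaks (7.74% without the 8 of 652 bp or more). Keeping peaks of at least 230 bp, an alternative chosen after seeing the data, gave a median MII only width of 301 bp. Lengths and widths under a minimum width or a shorter 2-cell list follow from how those alternatives were built, and the cause of the other shifts was not tested. Joining peaks closer than 500 bp kept the values named here within the interval of the value as reported, or counts within 1.5 times. Widening peaks by 250 bp, run for the ratio of list lengths, the class counts and the shared percentages, did so for those. Of 97 other values compared, 33 moved outside that interval, 20 upwards and 13 downwards. Background windows of 300 bp, added after seeing the data, gave lower shares than windows of 500 bp for each of the 11 lists, such as 2.03% for the 8-cell and 8.54% for the day 14 list.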
